A study of Mus musculus with 12 samples.

Results

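The AP-1 transcription factor genes Fos, Fosb, Fosl1, Fosl2, Jun, Junb, Jund, Atf3 and Batf were followed in RNA sequencing of mouse bone marrow cells. They were picked by gene symbol, by a rule that uses no measured value, with earlier results of these data known. All 9 were found among the 24444 symbols of both deposited tables. Marrow came from C57BL/6 mice with or without the Hopx gene (wild type and knockout), in 2 experiments with 12 libraries in 4 groups of 3. The groups aged_WT and aged_KO are labelled old, with an age of 18 weeks, and carry no MN1. The groups MN1_WT and MN1_KO carry MN1 overexpression, with an age of 16 weeks. Hopx, an atypical homeodomain protein without DNA binding of its own, is known to oppose the serum response factor SRF. MN1 acts as a cofactor of transcription, and mouse marrow forced to express it can give rise to myeloid leukaemia. The labels name neither the vector or promoter of MN1, nor the cells it was put into, nor the source species of its sequence. They do not say whether the libraries came from separate mice, so p-values measure the spread between these libraries only.

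AP-1 is not 1 protein but a family of dimers built through leucine zippers. Jun proteins pair with each other or with a Fos protein, and Fos proteins need a Jun partner to bind DNA. Fos, Fosb, Jun, Junb and Atf3 are immediate early genes: stress, growth factors or cytokines switch them on within minutes through MAP kinases, SRF and CREB, without new protein synthesis, and their transcripts are short-lived. They also respond to the handling of cells after harvest. Jund is more evenly expressed, Fosl1 and Fosl2 follow later, Atf3 is induced by cell stress, and Batf, which lacks a transactivation domain, pairs with Jun proteins and IRF4 or IRF8 in lymphocytes and dendritic cells.

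Expected counts summed to between 16544407 and 28409046 per library. Values for single libraries are CPM, the gene's count scaled to a common library total. The Hopx transcript itself was at 14.2 to 33.6 CPM in aged_WT and 0 to 0.121 CPM in aged_KO. In the MN1 experiment it was at 14.1 to 27.9 CPM in wild type and, above the aged knockout, 2.92 to 3.51 CPM in knockout. Mn1 went against the label in MN1_WT replicates 2 and 4 (0.395 and 0.16 CPM), which lay within the aged libraries (0.0704 to 1.18 CPM), whereas MN1_WT replicate 3 was at 36.4 CPM and MN1_KO at 22.1 to 47.3 CPM. Fold changes of the members with MN1_WT are therefore given with and without these 2 libraries, while gene lists are given with them only; the fit without them assumes that the lone library left varies like the other groups. The summed CPM of 4 Y-linked genes was at most 0.152 in the aged libraries but 81.8 to 241 in the MN1 wild type and 8.05 to 21.6 in the MN1 knockout. Xist was at 435 to 823 CPM in the aged libraries, 18.1, 4001 and 2.4 CPM in MN1_WT replicates 2, 3 and 4, and 585 to 4937 CPM in the MN1 knockout. Marrow markers were present throughout: the sum of 8 neutrophil genes was 22220 to 114100 CPM, while the sum of 8 B cell genes, all of which fell in the aged knockout, was 384 to 914 CPM in aged_WT and 26.7 to 37.6 CPM in aged_KO. In bulk marrow, fewer cells of a type and less RNA per cell cannot be told apart. No 2 libraries were copies: among 10641 genes with a mean count above 100, at most 0.771% of counts were equal in a pair.

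Promoter stretches of 4 members are shown because 3 of the genes (Fos, Jun and Atf3) are induced ones that fell in MN1_KO against aged_KO and hold one of the motifs below, and Batf, which did not pass there, carries the same short motif as Fos and Atf3. RefSeq windows (build GRCm38.p6, the sequence of mm10) of 250 bases before to 50 after the gene start were found for 8 of the 9 members. The stretches run 5′ to 3′ on the gene's strand and end just before the annotated start (for Batf before the GENCODE start, which lies upstream of that of RefSeq); the Atf3 stretch lies inside the longer GENCODE model of that gene. Capitals mark TGACGT or its complement, the core of the cAMP response element to which CREB and ATF proteins bind, in Fos, Atf3 and Batf. In Jun they mark TGACATCA, the variant element through which Jun and ATF2 are known to act on the Jun gene itself.
Fos, chr12:85473740-85473889, plus strand: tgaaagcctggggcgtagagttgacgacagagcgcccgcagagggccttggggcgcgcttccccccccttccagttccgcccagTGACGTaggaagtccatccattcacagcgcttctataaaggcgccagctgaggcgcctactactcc
Jun, chr4:95052223-95052372, minus strand: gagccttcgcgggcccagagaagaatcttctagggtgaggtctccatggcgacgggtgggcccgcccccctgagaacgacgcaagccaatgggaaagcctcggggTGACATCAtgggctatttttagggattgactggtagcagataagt
Atf3, chr1:191183334-191183483, minus strand: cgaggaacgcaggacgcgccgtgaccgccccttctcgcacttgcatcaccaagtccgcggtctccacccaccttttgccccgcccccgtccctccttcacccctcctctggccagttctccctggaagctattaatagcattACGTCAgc
Batf, chr12:85686570-85686668, plus strand: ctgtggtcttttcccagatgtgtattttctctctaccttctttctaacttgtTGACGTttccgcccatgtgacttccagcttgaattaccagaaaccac
Counted from the RefSeq start, the TGACGT match began 66 bases upstream in Fos, 98 in Batf and 8 in Atf3, and the TGACATCA match 45 bases upstream in Jun. The windows of Fosb and Junb, which are also induced genes that fell, held neither motif, nor did those of Fosl2 and Jund. Searched on both strands, TGACGT occurred in 7.51% of 32851 mouse windows of the same length, TGACATCA in 3.62%, the full element TGACGTCA in 1.79%, the AP-1 site TGANTCA in 7.81% and the SRF-binding CArG box in 1.63%. None of the 8 windows held TGACGTCA, TGANTCA or a CArG box, which says only that these letters are not in this stretch. A match is a description of sequence. The 4 stretches were picked by motif and by call, and a relation of motif to expression was not tested.

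Junb was the most abundant member in all 4 groups by mean TPM, and the order below it differed between groups. Single aged libraries differed in this. Fos lay above Junb in aged_WT replicate 7 (513.6 and 467.8 TPM) and in aged_KO replicates 9 (443.1 and 437.5) and 10 (339.8 and 332.1). In the other aged libraries Junb lay above Fos. On the authors' TPM scale, which also corrects for transcript length, aged_WT means were 384 for Junb, 343 for Fos, 165 for Jun, 97.5 for Jund, 34.7 for Fosl2, 33.8 for Fosb, 29.4 for Batf, 18.8 for Atf3 and 0.563 for Fosl1. In MN1_KO the mean TPM was 69.2 for Junb, 31.2 for Jun, 27.7 for Batf, 25.6 for Jund, 18.9 for Fosl2 and 14.9 for Fos. Fos thus ranked below Batf in that group. Atf3, Fosb and Fosl1 were at 2.63, 0.803 and 0.17 TPM there.

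The summed TPM of the 9 genes was 774, 956 and 1590 in aged_WT replicates 1, 6 and 7, and 1111, 1270 and 1086 in aged_KO replicates 3, 9 and 10. It was 406, 219 and 374 in MN1_WT replicates 2, 3 and 4, and 163, 213 and 197 in MN1_KO replicates 5, 7 and 8. All 6 MN1 libraries lay below all 6 aged libraries, and MN1_WT replicate 3, the library of its group with high Mn1, lay close to MN1_KO. The 4 Fos-family genes made up 34.8 to 38.2% of this sum in aged_WT, 38.7 to 41.7% in aged_KO, 21.3 to 34% in MN1_WT and 13.7 to 23.8% in MN1_KO. Batf took 1.92 to 3.58% of the sum in the aged libraries and 6.83 to 17.8% in the MN1 libraries. Its own level was 23.7 to 37.4 TPM over the 12 libraries.

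**Figure D1:**
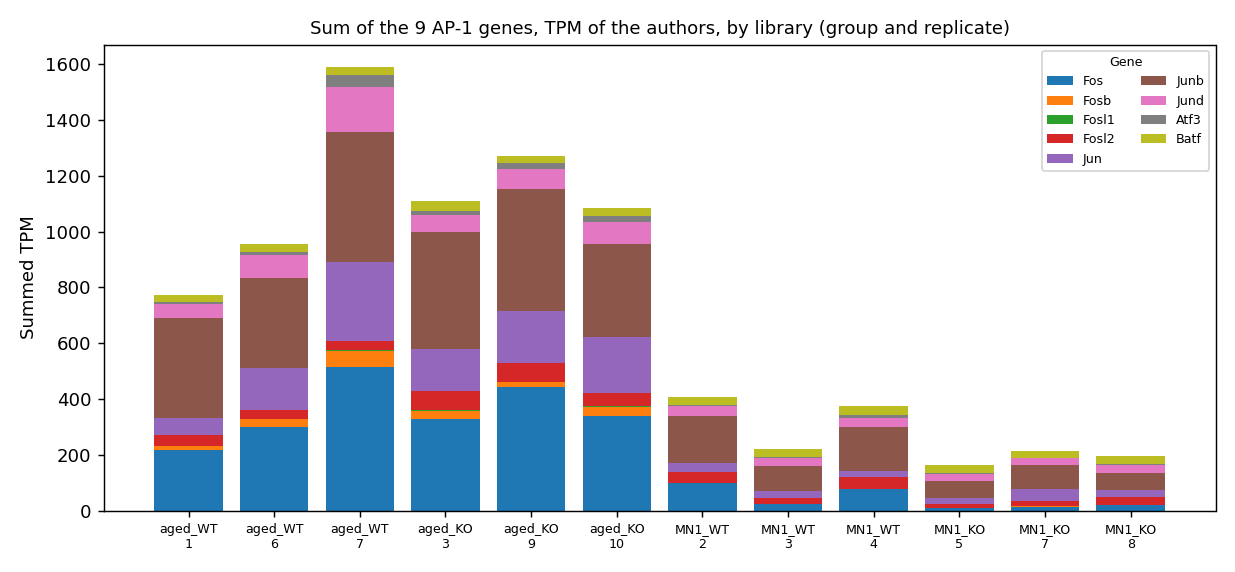
Summed TPM (vertical axis, TPM of the authors) of the 9 AP-1 genes in each of the 12 libraries, stacked by gene; labels on the horizontal axis give group and replicate. The aged libraries reach 774 to 1590 TPM and the MN1 libraries 163 to 406 TPM, with Fos and Junb as the tallest segments of the aged bars.

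MN1 libraries were set against aged libraries of the same Hopx genotype to see how AP-1 differed in marrow of the MN1 experiment. In knockout marrow 8 of the 9 members fell and Batf did not pass. In wild-type marrow Fos, Fosb, Jun, Junb and Jund fell and the other 4 did not pass. With any 1 library left out, 2 to 3 members and 78 to 397 of all genes passed there. MN1 status, labelled age and deposited table coincide, and the Y-linked level splits the libraries in the same way, so they cannot be told apart in either comparison. A call is an adjusted p under 0.05 in edgeR's quasi-likelihood test, with Benjamini-Hochberg adjustment over all 13937 genes. Of all genes tested, 37.9% were called (16.8% as lower) in the knockout comparison and 3.58% (2.58% as lower) in the wild-type comparison. The groups compared did not overlap in CPM for 8 members in knockout and 6 in wild type (the 5 called and Batf), against 54.6% and 40.6% of all genes. The median log2 fold change of the members was -3.00 in knockout and -1.97 in wild type, against 0.08 and 0.06 for all genes.

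**Figure D2:**
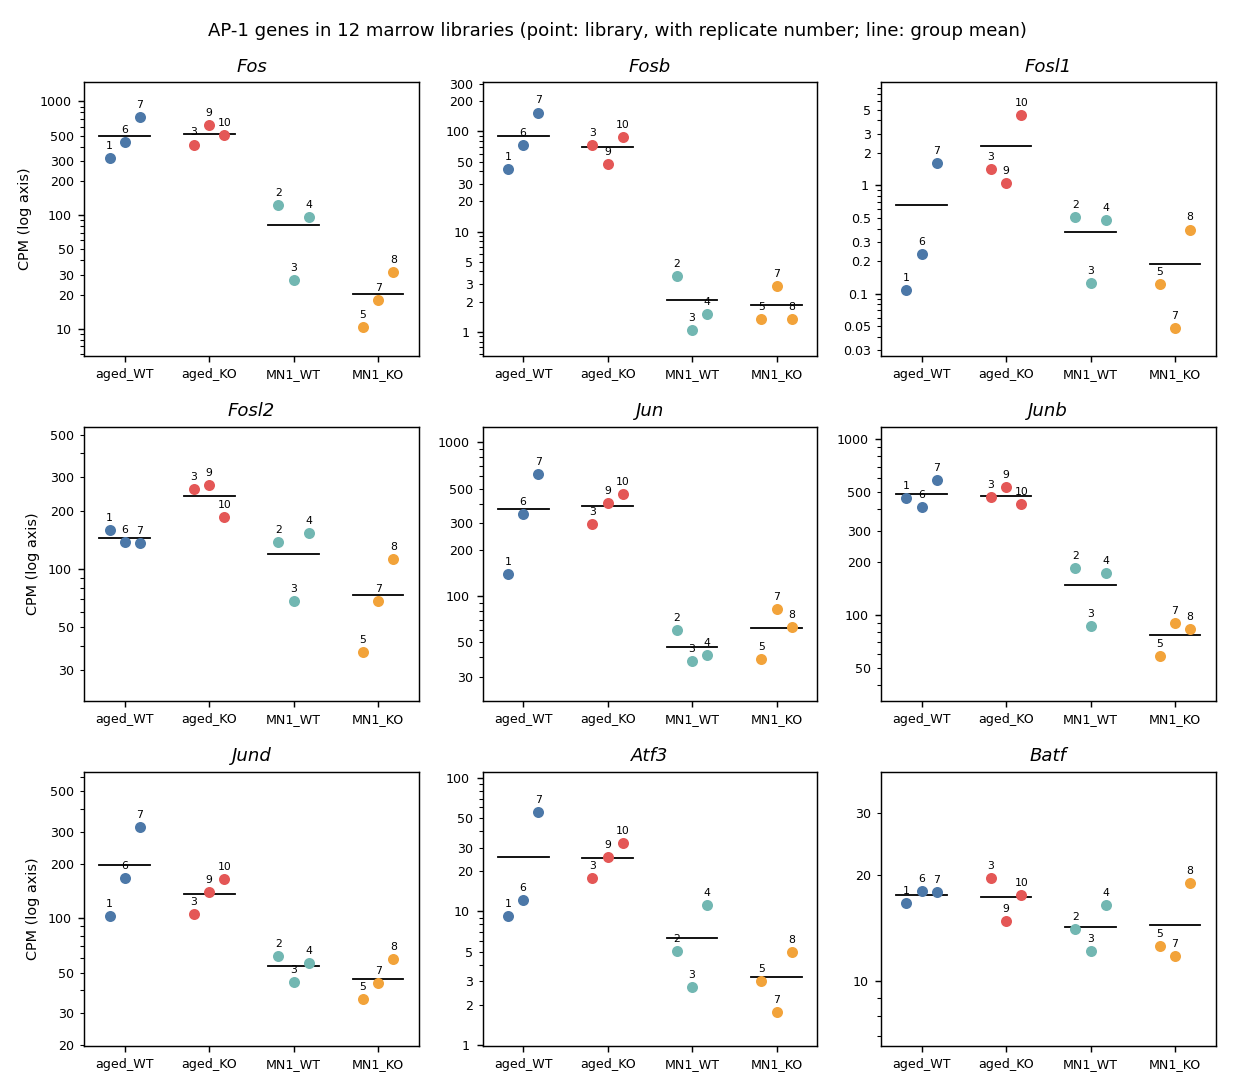
CPM of each AP-1 gene (vertical log axes, CPM; 1 panel per gene) in the 12 libraries by group, with replicate numbers beside the points and a line at the group mean. In Fos, Fosb, Jun, Junb, Jund and their stress-induced relative Atf3 all MN1 libraries but MN1_WT replicate 4 for Atf3 lie below every aged library, while Batf stays between 11.8 and 19.6 CPM.

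Fos (GENCODE M21, chr12:85473890-85477273), whose protein is a strongly activating partner of Jun, stood at 317, 440 and 737 CPM in aged_WT replicates 1, 6 and 7 and at 418, 622 and 504 CPM in aged_KO replicates 3, 9 and 10. In MN1_WT replicates 2, 3 and 4 the values were 123, 26.6 and 96.4 CPM, and in MN1_KO replicates 5, 7 and 8 they were 10.4, 17.9 and 31.9 CPM. No MN1 library reached the lowest aged one. In knockout marrow Fos was 32.1-fold lower (log2 fold change -5.00 ± 0.69 SE, n = 3 and 3, edgeR adjusted p = 0.00146), and in wild type 6.49-fold lower (-2.70 ± 0.62, edgeR adjusted p = 0.0399). The wild-type call did not hold when any single library was left out (edgeR adjusted p = 0.052 to 0.14). Without MN1_WT replicates 2 and 4 together, which leaves a lone library in that group, the log2 fold change was -4.52.

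Fosb, a close relative of Fos that is induced in the same way, showed the largest fold of the family in both comparisons. It was at 42.3, 73.2 and 154 CPM in aged_WT and 72.8, 47 and 88.7 CPM in aged_KO, listed in the order of replicates used above. In MN1_WT it was at 3.64, 1.04 and 1.52 CPM and in MN1_KO at 1.36, 2.84 and 1.35 CPM, the lowest of these resting on 25 counts. Aged and MN1 libraries were far apart and the genotypes overlapped within each. Fosb was 48.5-fold lower in MN1_KO than in aged_KO (log2 fold change -5.60 ± 0.64, edgeR adjusted p = 0.000774) and 46.8-fold lower in MN1_WT than in aged_WT (-5.55 ± 0.63, edgeR adjusted p = 0.00345). Both calls held without any single library. Without MN1_WT replicates 2 and 4 the log2 fold change in wild type was -6.71.

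The Jun family fell as well, by less than Fosb. Jun, which can form AP-1 with itself as well as with Fos, was at 139, 342 and 626 CPM in aged_WT, 294, 403 and 463 CPM in aged_KO, 60.4, 37.6 and 41.7 CPM in MN1_WT and 39.2, 83 and 63.4 CPM in MN1_KO. The MN1 groups overlapped each other and stayed below every aged library. Its log2 fold change was -3.11 ± 0.51 in wild type (edgeR adjusted p = 0.0136) and -3.00 ± 0.51 in knockout (edgeR adjusted p = 0.00307), and both calls held without any single library. Without MN1_WT replicates 2 and 4 it was at -3.58 in wild type. Junb, which often restrains Jun and is needed to limit myeloid growth, was at 462, 414 and 587 CPM in aged_WT and 469, 536 and 430 CPM in aged_KO. It was at 185, 86.2 and 173 CPM in MN1_WT and 58.5, 90.1 and 83.5 CPM in MN1_KO, so that MN1_WT replicate 3 again lay among the MN1_KO libraries. Junb was 7.91-fold lower in knockout (-2.98 ± 0.35, edgeR adjusted p = 0.00084) and 3.57-fold lower in wild type (-1.84 ± 0.33, edgeR adjusted p = 0.0174). The wild-type call of Junb was lost without any 1 of the 3 aged_WT libraries (edgeR adjusted p = 0.053 to 0.072). Without MN1_WT replicates 2 and 4 the log2 fold change of Junb in wild type was -2.80. Junb overlaps Prdx2 on the opposite strand and Jun overlaps Junos, and whether the counting used strand is not given in the sources used here; Prdx2 was at 93 to 360 CPM in the aged and 163 to 223 CPM in the MN1 libraries, with no gap between the experiments. Jund and Fosl1 likewise overlap Gm11175 and Ccdc85b on the other strand.

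Jund, the Jun gene that is usually expressed without induction, spread widely in aged_WT (102, 167 and 319 CPM) and less in aged_KO (106, 139 and 164 CPM). In MN1_WT it was at 62.1, 44.3 and 56.9 CPM and in MN1_KO at 35.6, 44 and 59.3 CPM. Its log2 fold change, the smallest of the 8 called in knockout, was -1.90 ± 0.40 there (edgeR adjusted p = 0.00658) and -1.97 ± 0.40 in wild type (edgeR adjusted p = 0.0261). The wild-type call held in 1 of the 6 fits that left out a library (edgeR adjusted p = 0.027 to 0.091). Without MN1_WT replicates 2 and 4 it was at -2.44.

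Fosl1 and Fosl2, which encode Fos relatives without a strong transactivation domain, fell in knockout; neither passed in wild type. Fosl2 was at 160, 138 and 137 CPM in aged_WT, 260, 274 and 186 CPM in aged_KO, 138, 68 and 154 CPM in MN1_WT and 37.1, 68.5 and 113 CPM in MN1_KO. The wild-type groups overlapped, with replicates 2 and 4 of MN1_WT at the aged level, while no MN1_KO library reached the lowest aged_KO one. Fosl2 was 4.09-fold lower in MN1_KO than in aged_KO (log2 fold change -2.03 ± 0.46, edgeR adjusted p = 0.00839) and at -0.39 ± 0.44 in wild type (edgeR adjusted p = 0.595; -1.39 and 0.131 without MN1_WT replicates 2 and 4). Fosl1 was scarce, with 1 to 74 counts per library. It was at 1.43, 1.06 and 4.47 CPM in aged_KO and 0.123, 0.0481 and 0.392 CPM in MN1_KO, a log2 fold change of -3.89 ± 1.10 (edgeR adjusted p = 0.0208) that did not pass without aged_KO replicate 10, MN1_KO replicate 5 or MN1_KO replicate 7 (edgeR adjusted p = 0.07 each). In wild type it was at 0.108, 0.233 and 1.62 CPM in the aged and 0.514, 0.125 and 0.48 CPM in the MN1 libraries (-0.89 ± 1.02, edgeR adjusted p = 0.604; -2.61 and 0.301 without MN1_WT replicates 2 and 4).

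Atf3, a stress-induced partner of Jun that often represses, was at 9.26, 12.2 and 55.1 CPM in aged_WT and 17.7, 25.5 and 32.6 CPM in aged_KO. In MN1_WT it was at 5.06, 2.7 and 11.2 CPM and in MN1_KO at 3, 1.78 and 4.96 CPM. The knockout groups did not overlap and Atf3 fell there (-3.30 ± 0.78, edgeR adjusted p = 0.0104), while the wild-type groups overlapped (-2.10 ± 0.74, edgeR adjusted p = 0.125). In wild type DESeq2 called Atf3 (-2.10, DESeq2 adjusted p = 0.0272), in a comparison where it called more genes than edgeR. Without MN1_WT replicates 2 and 4 Atf3 was at -3.52. Batf was the most even member, at 16.7, 18.1 and 17.9 CPM in aged_WT, 19.6, 14.9 and 17.5 CPM in aged_KO, 14.1, 12.2 and 16.5 CPM in MN1_WT and 12.6, 11.8 and 19 CPM in MN1_KO. Its highest library was 1.66 times its lowest, against 148 times for Fosb and 70.8 times for Fos. After the TMM scaling that the fits use, its means were 18.2 and 20 CPM in aged_WT and aged_KO, and 13.4 and 13.3 CPM in MN1_WT and MN1_KO. Batf was at -0.59 ± 0.25 on the log2 scale in the knockout comparison (edgeR adjusted p = 0.0806). There it passed in 1 of 5 other settings and in 1 of the 6 fits that left out a library. In wild type it was at -0.44 ± 0.25 (edgeR adjusted p = 0.295), and at -0.82 without MN1_WT replicates 2 and 4.

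**Figure D3:**
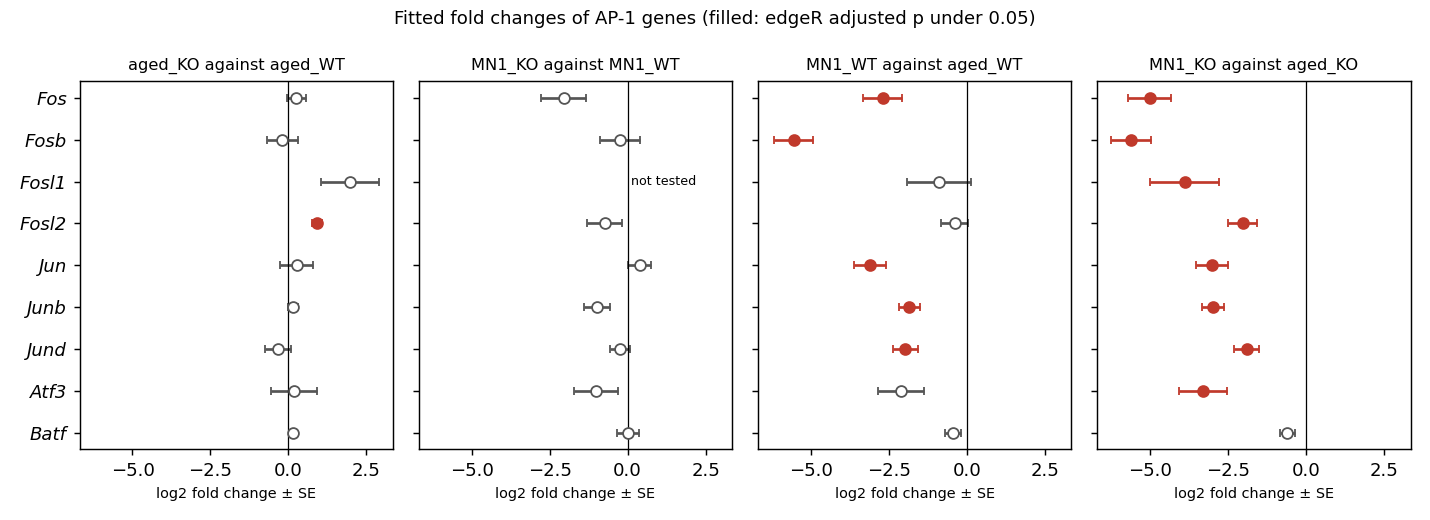
Fitted log2 fold change with its standard error (horizontal axes) of each AP-1 gene (vertical axis) in 4 comparisons of 3 against 3 libraries; filled red points have an edgeR adjusted p under 0.05. Of the members, 1 is filled for aged_KO against aged_WT (Fosl2), 0 for MN1_KO against MN1_WT, 5 for MN1_WT against aged_WT and 8 for MN1_KO against aged_KO.

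The aged groups differ in Hopx alone by their labels, and were compared to see how AP-1 differed between the genotypes in bulk marrow. Fosl2 was the only member that rose, by 1.88-fold; the other 8 did not pass. Fosl2 went from 145 ± 13 CPM to 240 ± 47 CPM (SD, n = 3 and 3), with no overlap between groups (log2 fold change 0.91 ± 0.16, edgeR adjusted p = 0.00439). These CPM are unscaled, whereas the 1.88-fold is from the fit, which scales by TMM. After TMM scaling over all 12 libraries the means were 150 and 278 CPM. Of the 12771 genes tested, 31.4% were called (15.6% higher and 15.8% lower), and the aged groups did not overlap in 50.9% of genes. A count of 1 call and 1 member without overlap among 9 is below that background. The Fosl2 call held without any single library (log2 fold change 0.75 to 1.07) and was lost when all 12 libraries set the spread (0.89, edgeR adjusted p = 0.26). Neutrophil markers moved in the same direction: 4 of the 8 rose, and their sum was 73370 to 95200 CPM in aged_WT and 92480 to 114100 CPM in aged_KO. Their part in the Fosl2 result was not tested.

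The other members did not pass between the aged genotypes. Fos was at 498 ± 216 CPM in aged_WT and 515 ± 102 CPM in aged_KO (log2 fold change 0.25 ± 0.31), Jun at 369 ± 245 and 387 ± 86 CPM (0.27 ± 0.53), and Junb at 488 ± 89 and 479 ± 54 CPM (0.16 ± 0.16; edgeR adjusted p = 0.476 to 0.739 for these 3). Jund was at 196 ± 111 and 136 ± 29 CPM (-0.33 ± 0.42), Fosb at 89.9 ± 58 and 69.5 ± 21 CPM (-0.19 ± 0.49) and Atf3 at 25.5 ± 26 and 25.3 ± 7.5 CPM (0.19 ± 0.74; edgeR adjusted p = 0.587 to 0.872). Batf was at 17.6 ± 0.77 and 17.3 ± 2.4 CPM (0.15 ± 0.12, edgeR adjusted p = 0.359). The spread of aged_WT limits what could be detected. Its replicate 7 was the highest aged_WT library for Fos, Fosb, Fosl1, Jun, Junb, Jund and Atf3, and its replicate 1 the lowest for Fos, Fosb, Fosl1, Jun, Jund and Atf3. Within aged_WT replicates 1, 6 and 7 the summed B cell markers were at 384, 470 and 914 CPM, 6 erythroid markers at 274, 545 and 1011 CPM and 14 other immediate early genes at 1606, 1817 and 2844 CPM, all in the same order. Neutrophil markers ran the other way (95200, 85520 and 73370 CPM), as did 4 platelet markers (258, 209 and 201 CPM). In aged_KO against aged_WT 5 of the 6 erythroid and all 4 platelet markers fell. The part of these cell types was not tested. Without aged_WT replicate 7, Fosl1 and Atf3 passed as higher in aged_KO (log2 fold change 3.81 and 1.41, edgeR adjusted p = 0.0195 and 0.0131). The signs of Fosb and Jund turned there without passing (0.42 and 0.19). Many other genes pass in such fits: with any 1 library left out, 2402 to 4599 genes and 1 to 3 members did. With all libraries Fosl1 was at 1.96 ± 0.93 (edgeR adjusted p = 0.154), and DESeq2 called it (DESeq2 adjusted p = 0.0375).

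In the MN1 experiment the same genotype comparison gave no AP-1 call. Hopx itself did not pass there either, though it was 7.14-fold lower without overlap (edgeR adjusted p = 0.129). A lack of calls in this fit therefore does not show a lack of difference. By mean level, Fos was at 81.9 ± 50 CPM in MN1_WT and 20.1 ± 11 CPM in MN1_KO (log2 fold change -2.05 ± 0.73, edgeR adjusted p = 0.414), and Junb at 148 ± 54 and 77.4 ± 17 CPM (-0.98 ± 0.41, edgeR adjusted p = 0.501). Fosl2 was at 120 ± 46 and 72.9 ± 38 CPM (-0.73 ± 0.57) and Atf3 at 6.32 ± 4.4 and 3.25 ± 1.6 CPM (a 2-fold difference), whereas Jun was at 46.6 ± 12 and 61.9 ± 22 CPM (0.39 ± 0.38; edgeR adjusted p = 0.736 to 0.812). Fosb, Jund and Batf were at -0.23, -0.25 and 0.01, and Fosl1 was not tested for low counts. In all of the 8 tested members the groups overlapped, against 15.1% of all genes without overlap. Of 13525 genes, edgeR called 0 (0%); 1353 had an unadjusted p under 0.05, and DESeq2 called 565 and limma-trend 6, with 0 AP-1 members in each.

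In Fos, Fosl2 and Junb the overlap came from MN1_WT replicate 3. This library (26.6, 68 and 86.2 CPM) lay within the range of MN1_KO, while replicates 2 and 4, whose Mn1 was at the aged level, lay above all 3 MN1_KO libraries. Without replicates 2 and 4 the log2 fold change was -0.23 for Fos, -0.02 for Junb and, with its sign turned, 0.28 for Fosl2; Fosb, Jund and Atf3 turned as well (0.92, 0.21 and 0.42), and Jun and Batf were at 0.85 and 0.39. Neutrophil markers split the group in the same way, with a sum of 36660 CPM in replicate 3 against 71040 and 82000 CPM, as did B cell markers, with 42.7 CPM against 270 and 192 CPM. The MN1_KO libraries had neutrophil sums of 22220, 56010 and 82810 CPM and B cell sums of 30.6 to 41.5 CPM. Monocyte and macrophage markers summed to 685, 294 and 733 CPM in MN1_WT replicates 2, 3 and 4 (174 to 450 CPM in MN1_KO). T and NK cell markers were at 246, 109 and 265 CPM (91 to 100 CPM). Platelet markers ran the other way, at 77.1, 427 and 79.3 CPM (93.6 to 245 CPM). Erythroid markers, at 190, 190 and 224.5 CPM (105 to 293.5 CPM), did not split so. The part of Mn1, of cell type and of the Y-linked level in these values was not tested.

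**Figure D4:**
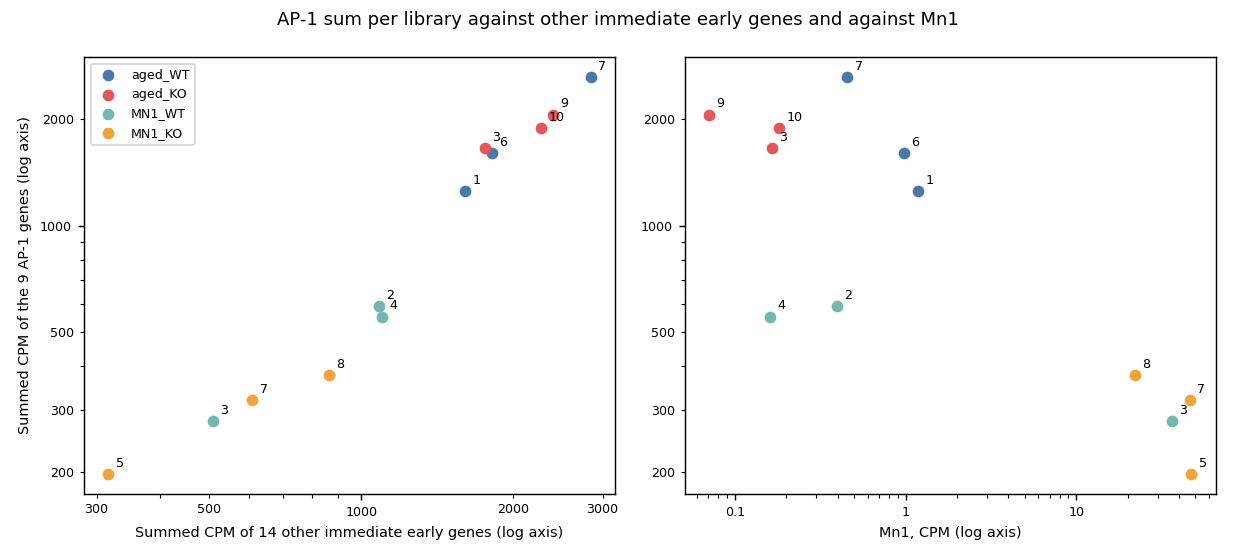
Summed CPM of the 9 AP-1 genes (vertical log axes) in the 12 libraries against the summed CPM of 14 other immediate early genes (left, log axis) and against Mn1 CPM (right, log axis), coloured by group and marked with the replicate number. MN1_WT replicates 2 and 4, at 592 and 552 CPM of AP-1, lie at the Mn1 level of the aged libraries (1249 to 2635 CPM of AP-1) but below all of them.

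Whether the genotype effect differed between the experiments was tested as a difference of the knockout effects in 1 fit of all 12 libraries. No member passed: Fos was at -2.31 ± 0.84 (edgeR adjusted p = 0.141), Fosl2 at -1.64 ± 0.63 (edgeR adjusted p = 0.158) and Junb at -1.15 ± 0.46 (edgeR adjusted p = 0.174). The same contrast compares the fall with MN1 between genotypes. Of all genes 3.32% passed. Without MN1_WT replicate 3, which left only the libraries of that group whose Mn1 was at the aged level, these 3 members passed (-2.77, -1.99 and -1.49, edgeR adjusted p = 0.0141, 0.0287 and 0.0113). The share of 3.32% belongs to the fit of all libraries and is no background for these calls. With any 1 library left out, 53 to 3337 of all genes passed in this contrast. Fosl2 also passed without MN1_KO replicate 8 (-2.23, edgeR adjusted p = 0.0466), and DESeq2 called Fos with all libraries (DESeq2 adjusted p = 0.0369). DESeq2 called more genes than edgeR in this contrast, so 3.32% is no background for that call either. Without MN1_WT replicates 2 and 4 the difference was -0.51 for Fos (edgeR adjusted p = 0.837).

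Over the 4 groups, the order of mean CPM was aged_KO, aged_WT, MN1_WT and MN1_KO for Fos, Fosl1 and Fosl2. For Fosb, Junb, Jund and Atf3 aged_WT stood first by mean CPM, with aged_KO, MN1_WT and MN1_KO after it. For Junb, Atf3 and Batf the 2 aged groups changed places with TMM-scaled CPM or TPM. Jun was lowest in MN1_WT. The aged groups overlapped in every member but Fosl2, and the MN1 groups in every member. The step from the aged to the MN1 groups was free of overlap for Fos, Fosb, Jun, Junb and Jund. For Atf3, aged_KO did not overlap MN1_WT, but the lowest aged_WT library (9.26 CPM) lay under the highest of MN1_WT (11.2 CPM). The 4 group means of Batf lay between 14.2 and 17.6 CPM, with overlap between all neighbours.

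The genes around AP-1 were taken by role from lists written from textbook knowledge. Their counts are read against the share of all genes called: 37.9% in MN1_KO against aged_KO (16.8% lower), 3.58% in MN1_WT against aged_WT and 31.4% in the aged knockout (15.6% higher and 15.8% lower). Of 14 other immediate early genes, 10 fell and 0 rose in MN1_KO against aged_KO, with a median log2 fold change of -1.95. Among them were Ier3, a survival gene (-2.20, edgeR adjusted p = 0.00161), the Krüppel-like factor gene Klf6 (-2.33, edgeR adjusted p = 0.00166), Ier5 (-3.02, edgeR adjusted p = 0.00313) and Ier2 (-1.80, edgeR adjusted p = 0.00765). In wild type 3 of the 14 fell, namely Egr1, whose product is the zinc finger factor of growth signals (126 to 20.5 CPM, edgeR adjusted p = 0.017), Ier3 and Ier5 (-1.62 and -2.38), with a median of -1.15 over the list. In aged_KO against aged_WT, Egr3, Klf4 and Nr4a3 fell (-2.71, -0.53 and -1.85, edgeR adjusted p = 0.0128, 0.0168 and 0.0242) and 11 did not pass (list median -0.24), a count below the share of all genes called. In the MN1 genotype comparison 0 of 14 passed, with a median of -0.71. The summed level of the 14 genes was 1606 to 2844 CPM in the aged libraries and 317 to 1100 CPM in the MN1 libraries.

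Upstream of AP-1, the MAP kinase cascade list of 16 kinases held 9 that fell and 1 that rose in MN1_KO against aged_KO (median -0.59), among them the p38 gene Mapk14 (-0.86, edgeR adjusted p = 0.00547), Map2k4 (-0.68) and Braf (-0.64). In aged_KO against aged_WT 7 of the 16 rose and 0 fell (median 0.28), among them the ribosomal S6 kinase gene Rps6ka3 (0.68, edgeR adjusted p = 0.00248), Braf (0.66), Mapk3 (0.56) and Rps6ka1 (0.55). Of the 6 tested SRF and cofactor genes, Srf and its coactivator gene Mkl1 rose in the aged knockout (0.36 and 0.50, edgeR adjusted p = 0.0145 and 0.0127). Both fell in MN1_KO against aged_KO (-0.57 and -0.95, edgeR adjusted p = 0.0187 and 0.0483), as did the SRF partner gene Elk1 (-0.83, edgeR adjusted p = 0.00964). The list medians were 0.29 and -0.28. In MN1_WT against aged_WT 0 of the 16 and 0 of the 6 passed, with medians of -0.13 and 0.00016. The fold changes are after TMM scaling, with factors of 0.82 to 0.9125 in aged_KO and 0.9967 to 1.231 in MN1_KO. In unscaled CPM the 16 kinases summed to a mean of 2052 in aged_WT, 2319 in aged_KO, 2121 in MN1_WT and 1986 in MN1_KO. The 6 SRF and cofactor genes summed to 292, 333, 301 and 285 CPM in that order.

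Among the MAP kinase phosphatases, which switch the pathway off, Dusp1 fell from 376 to 31.2 CPM in MN1_KO against aged_KO (-3.91 ± 0.66, edgeR adjusted p = 0.00304), the other 7 did not pass, and the list median was -0.30. In the aged knockout Dusp6, the ERK phosphatase, fell (-0.53, edgeR adjusted p = 0.0118) and 6 did not pass (median -0.58). Of 11 dimer partners of the ATF, JDP and MAF families, 4 fell and 1 rose in MN1_KO against aged_KO (median -0.51): the AP-1 repressor gene Jdp2 (-1.25), Batf3 of dendritic cells (-2.51) and Atf4 were among those that fell, and Batf2 rose (2.54, edgeR adjusted p = 0.0051). In the aged knockout Mafg, Jdp2 and Atf2 rose (0.67, 0.55 and 0.38, edgeR adjusted p = 0.00221, 0.00463 and 0.0134), Maf fell (-1.16, edgeR adjusted p = 0.0103) and 7 did not pass (median 0.30). Both counts of partners called are near the share of all genes called. In wild type 0 of 11 partners and 0 of 8 phosphatases passed, with medians of -0.12 and -0.40.

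Textbook AP-1 target genes did not move as a block. In MN1_KO against aged_KO 8 of the 18 tested fell and 5 rose (median -0.86). The interleukin gene Il1b fell by 3.72 on the log2 scale (edgeR adjusted p = 0.00255), the gelatinase gene Mmp9 by 2.72 (edgeR adjusted p = 0.00512), Tnf by 2.29 (edgeR adjusted p = 0.008) and the urokinase gene Plau by 1.81, while the collagenase gene Mmp13, a classical AP-1 target, rose by 1.78 (edgeR adjusted p = 0.0109). Mmp13 and the osteopontin gene Spp1 were also the 2 of 18 that rose in wild type (2.98 and 1.85, edgeR adjusted p = 0.00976 and 0.017), where 0 fell (median -0.08). In the aged knockout 6 of 17 rose and 2 fell (median 0.29): the urokinase receptor gene Plaur (0.90, edgeR adjusted p = 0.00078), Vegfa (0.81, edgeR adjusted p = 0.00088) and Plau (0.60) were among those that rose, and the metallothionein gene Mt2 (-1.54, edgeR adjusted p = 0.001) fell. In the MN1 genotype comparison 0 of 18 passed (median -0.45). Mmp9, Il1b and Tnf are expressed by neutrophils and monocytes, whose marker sums were 22220 to 82810 CPM and 174 to 450 CPM in MN1_KO, against 92480 to 114100 CPM and 446 to 753 CPM in aged_KO. Their part was not tested.

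The genes most like each member over the 12 libraries were found by Pearson correlation of scaled log2 CPM. All values of a library share its depth and scaling, and the 12 libraries span both experiments, so the same correlation within each experiment of 6 libraries is given as a description. For Fos they were Dusp1 (0.98; 0.76 aged and 0.92 MN1) and Ier5 (0.98; 0.27 and 0.94). Fosb went with the heat shock genes Hspa8 (0.98; 0.62 and 0.74) and Hspa1b (0.98; 0.63 and 0.71), and Jun with Hspa1a (0.97; 0.71 and 0.84) and Trib1 (0.97; 0.88 and 0.62). Hspa1b stood at 39.6 to 150 CPM in the aged libraries and 1.26 to 3.88 CPM in the MN1 libraries, and Hspa1a at 14.7 to 92 CPM and 0.365 to 3.57 CPM. Junb was closest to Gadd45g (0.99; 0.30 and 0.98) and Ier5, Jund to Nr4a1 (0.98; 0.98 and 0.93) and the co-chaperone gene Dnajb1, and Atf3 to Nr4a1 (0.96; 0.83 and 0.91) and Csrnp1.

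Fosl2 had other neighbours: the repressor gene Bcl6 (0.996; 0.991 in the aged and 0.996 in the MN1 libraries) and the myeloid receptor gene Nfam1 (0.995; 0.98 and 0.999). Bcl6 was at 65.5 ± 2.7 CPM in aged_WT, 93 ± 19 in aged_KO, 57.2 ± 21 in MN1_WT and 37.6 ± 16 CPM in MN1_KO. Fosl1 was nearest to Plk3 (0.93) and Cenpo (0.92), and Batf to Poldip3 (0.98; 0.38 and 0.99) and Fcer1g (0.97). Within the aged and the MN1 libraries Fosl1 was at 0.98 and 0.83 with Plk3 and at 0.88 and 0.94 with Cenpo. For Jund and Dnajb1 these values were 0.91 and 0.87. Cenpo and Poldip3 were nearly level in unscaled CPM (20.3 to 26.9 and 103 to 125). Among the members themselves, Fos and Junb were the closest pair (0.99; 0.76 in the aged and 0.98 in the MN1 libraries). Fos and Jun were close in the aged libraries (0.92) and less so in the MN1 libraries (0.26), and Fosl2 and Jund ran apart in the aged libraries (-0.41) and together in the MN1 libraries (0.97). No p is given for these values.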

How the data were processed

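Polyadenylated RNA of 12 marrow samples was sequenced from stranded libraries, per the labels' protocols. The deposited tables hold expected counts per gene symbol, made by the authors with RSEM 1.2.28 and Bowtie2 2.3.4.3 on mm10, per the submitters' processing notes; annotation and strand setting are not given in the sources used here. TPM values deposited by the authors served to compare levels between genes, to sum the members per library and to order the groups. They entered no test, and 12 columns of FPKM were not used. Expected counts were rounded, filtered with filterByExpr, scaled by TMM (factors 0.82 to 1.23) and tested with edgeR 4.0.16 (quasi-likelihood, R 4.3.3), on 6 libraries for each knockout effect and on all 12 otherwise. SE is the log2 fold change over the root of F. Alternatives were DESeq2 1.42.0, limma-trend 3.58.1, DESeq2 size factors, other filters, a spread from all libraries, and leaving libraries out; the fits were tested on simulated data. Members and lists were chosen with earlier results of these data known. Named genes were the members, Hopx, Mn1, up to 4 genes with the smallest adjusted p per list and comparison, and the 2 genes most correlated with each member (mean log2 CPM of at least 1). Overlapping genes, and Atf4 and Mmp13 in the knockout comparison, were named after their values were seen. Some genes that this rule would name are not reported here.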

Additional observations from a re-analysis of the deposited data

How the results depend on the processing

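Of 578 fold changes of members under an alternative, 511 kept their direction and their side of the threshold, 18 no longer passed, 11 newly passed and 38 changed sign. With DESeq2 the aged knockout called 2 members, for which the share of all genes called by DESeq2 is not given here. DESeq2 called 1 member and 1671 genes in the difference of knockout effects. It called 565 genes in the MN1 knockout and 1791 genes in MN1 against aged in wild type. Limma-trend called 6 genes in the MN1 knockout. With a spread from all 12 libraries the aged knockout called 818 genes and 0 members, and the MN1 knockout 464 genes. Without MN1_WT replicates 2 and 4 the calls were 41 in the MN1 knockout, 2465 in MN1 against aged in wild type and 40 in the difference. Leaving out 1 library gave 2402 to 4599 genes and 1 to 3 members in the aged knockout, 0 to 896 genes and 0 members in the MN1 knockout, 78 to 397 genes and 2 to 3 members in MN1 against aged in wild type, 2515 to 7366 genes and 7 to 9 members in knockout, and 53 to 3337 genes and 0 to 3 members in the difference. Changes of sign were all in fold changes that did not pass with all libraries. In the MN1 knockout Batf was at -0.013 with DESeq2 size factors, -0.013 with DESeq2, -0.012 with the spread from all libraries and -0.026 with limma-trend, which in the difference gave -0.14 for Jun and -0.071 for Jund. Without MN1_WT replicates 2 and 4 the log2 values in the MN1 knockout were 0.92 for Fosb, 0.28 for Fosl2, 0.21 for Jund and 0.42 for Atf3, and in the difference 1.08 for Fosb, 0.20 for Atf3 and 0.21 for Batf. Leaving out 1 library, the aged knockout ranged from -0.52 to 0.42 for Fosb, -0.11 to 0.86 for Jun, -0.62 to 0.19 for Jund and -0.19 to 1.41 for Atf3. The MN1 knockout ranged from -0.67 to 0.50 for Fosb and -0.36 to 0.19 for Batf, MN1 against aged in wild type from -1.37 to 0.96 for Fosl1, and the difference from -0.66 to 0.65 for Fosb, -0.48 to 0.49 for Jun and -0.44 to 0.37 for Jund. The cause of these changes was not tested. No paired analysis was possible because the groups compared share fewer than 2 replicate numbers.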
